A study of Homo sapiens with 12 samples.

Results

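Ribosome-protected fragments were counted in 4 libraries of HEK293T, an immortalised human embryonic kidney line, out of 12 libraries in the series. The 4 were chosen by their labels alone: every library with control siRNA, sodium arsenite and an immunoprecipitation (IP) target was taken, and no measured value entered the choice. By label they form 2 groups of 2, mRNA bound to CBP80 and mRNA bound to eIF4E, each with a set 1 and a set 2. CBP80 and eIF4E both hold the mRNA cap, the former within the nuclear cap-binding complex and the latter as an initiation factor in the cytoplasm. Both groups share the line, the control siRNA and sodium arsenite. The labels give neither dose nor time of arsenite, and they do not say that the sets are separate cultures. No untreated HEK293T library and no mRNA-seq was used here. The values therefore describe where footprints lay under arsenite. They measure no response to it, and they mix mRNA amount with translation.

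Arsenite is an oxidative and thiol-reactive stress that makes cells phosphorylate the initiation factor eIF2 and curb cap-dependent initiation. ATF4 and several chaperone mRNAs are known for being translated under such stress. Ribosomal protein and elongation factor mRNAs carry a terminal oligopyrimidine (TOP) run at their 5′ end and are known as a class whose translation is held back when growth signalling falls. In a proliferating line, mRNAs of ribosomal proteins, histones, chaperones and glycolytic enzymes are among the most abundant.

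The libraries held 5684101, 5691535, 5169107 and 4331459 reads on coding sequences, in the order CBP80-labelled set 1, eIF4E-labelled set 1, CBP80-labelled set 2 and eIF4E-labelled set 2. All series of 4 values below follow that order. Levels are counts per 1000000 coding reads (CPM). A gene without a read could still lie at up to 3 counts, which is 0.527 to 0.693 CPM depending on the library. Rows that name no gene held 88.1 to 89.5% of the counts, most of them from reads that aligned to several places. Of the uniquely placed reads, 40.0, 40.2, 35.3 and 35.5% lay outside coding sequences, more in set 1 than in set 2. Within a set the CBP80- and eIF4E-labelled libraries were close to indistinguishable: the chi-square of their counts was 1.01 per degree of freedom in set 1 (11412 genes, p = 0.268) and 1.03 in set 2 (11129 genes, p = 0.0192). Between sets it was 3.95 to 4.25. The libraries of a set were therefore averaged and counted as 1 sample, and each mean ± SD below is over 2 sets. Whether they are separate libraries of different IPs cannot be told from counts this close. Where both libraries of a set lie above or below the other set, they therefore stand for 1 observation and not for independent ones. The 6 markers written down for HEK293T were all detected and summed to 836 to 881 CPM, led by IGF2BP1 at 420 ± 11.9 (SD, n = 2) and LIN28B at 181 ± 3.89 CPM. INA at 1.89 ± 0.0568 CPM and PAX2 at 1.41 ± 0.379 CPM lay little above the level of 3 counts and added almost nothing to that sum. Of the pluripotency markers 1, PODXL, exceeded 1 CPM, while POU5F1, LIN28A and DPPA4 were at 0. RefSeq names 6 pseudogenes after POU5F1 and 3 each after LIN28A and DPPA4. Reads that fit more than 1 place are not in the gene rows, so these zeros are a weak sign of absence. Blood markers summed to 0.462 to 3.51 CPM and endothelial markers to 1.23 to 3.001 CPM. Fibroblast markers summed to 18.8 to 22.9 CPM. EIF2A, the target of the series' knockdown, stood at 83.5 ± 0.308 CPM in these controls. NCBP1, which encodes CBP80, stood at 111 ± 14 CPM and EIF4E at 7.07 ± 0.427 CPM.

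Footprints were spread over many genes. The most occupied gene held 0.805 ± 0.00137% of them (n = 2) and the first 10 held 5.11 ± 0.311%. The 100 most occupied genes took 21.2, 21.2, 21.9 and 21.9% of footprints, a mean of 21.6 ± 0.470%. The first 1000 took 59.2 ± 0.557%. In the order of each library, 137, 137, 130 and 130 genes sufficed for 25% of footprints, 649, 649, 621 and 621 genes for 50%, and 4545, 4549, 4460 and 4465 genes for 90%. Set 2 was thus a little more concentrated than set 1 at these 3 levels. At the other end, 3493 of 19305 genes (18.1%) had no read in any library.

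**Figure D1:**
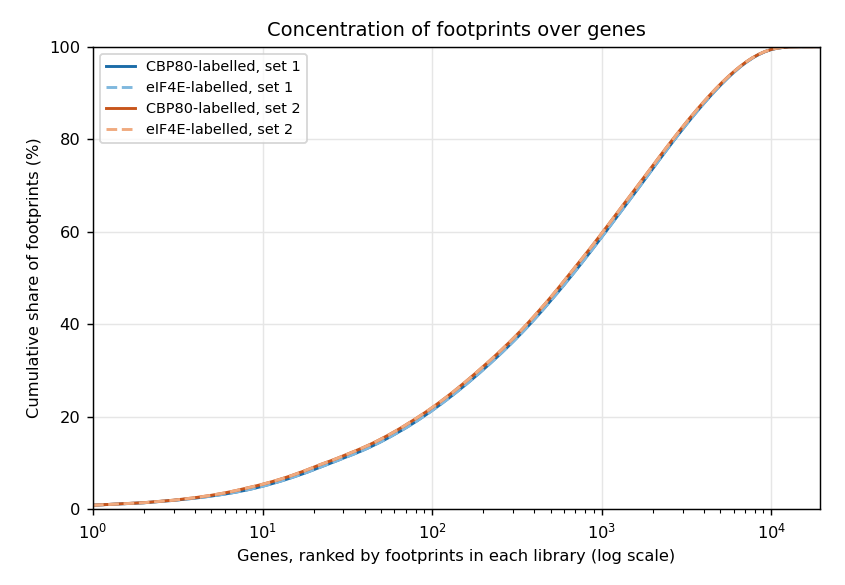
Cumulative share of footprints (y axis, %) against the number of genes, ranked from the most to the least occupied in each library (x axis, log scale). The 4 lines, 1 for each library, nearly coincide, with the 50% level reached at 649 genes in set 1 and 621 in set 2.

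NCL, which encodes nucleolin, the abundant nucleolar protein of ribosome biogenesis, was the most occupied coding sequence at 8080.3, 7998, 8105 and 8012 CPM. Its level was even across all 4 libraries, and its counting intervals lay above those of the next gene in each. RPS3 of the small ribosomal subunit followed at 5238, 5209, 5547 and 5528 CPM. EEF2, the translocation factor of elongation, stood at 5309, 5365, 5355 and 5464 CPM, so RPS3 and EEF2 traded places between sets. DDX5, an RNA helicase of transcription and splicing, had 4766, 4795, 5045 and 5036 CPM. RACK1, a scaffold protein bound to the small subunit, had 4488, 4429.7, 5225 and 5074 CPM. Both were higher in each set 2 library than in either set 1 library. ACTG1, cytoplasmic gamma-actin, had 4309, 4366, 5179 and 5284 CPM and PRDX1, a peroxide-removing peroxiredoxin, 4293, 4281, 5082 and 5165 CPM. Again set 2 was higher without overlap.

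Of the 25 most occupied genes, 6 encode ribosomal proteins, 4 cytosolic chaperones, 2 chaperones of the endoplasmic reticulum (ER), 2 elongation factors and 2 RNA-binding proteins of the hnRNP family. Nucleolin, actin, PRDX1 and LDHB stand for 1 list each. The remaining 5, with DDX5, RACK1, UBA1 and RBM3 among them, belong to no list used here. Sets 1 and 2 shared 23 of their 25 most occupied genes and 93 of their first 100. The order is one of footprints allocated, not of ribosomes per codon, because coding lengths were not used here and a longer coding sequence holds more ribosomes at the same density. It is also coarse: of 24 neighbouring pairs among the 25, 9 kept their order in all 4 libraries, and for 6 the counting intervals were apart in all 4. Those 6 steps were NCL over RPS3, EEF2 over DDX5, PRDX1 over HSPA5, RPL3 over RPL11, RPL38 over CCT3 and UBA1 over HNRNPDL. The order of the other neighbours was within counting error in at least 1 library or turned between libraries.

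**Figure D2:**
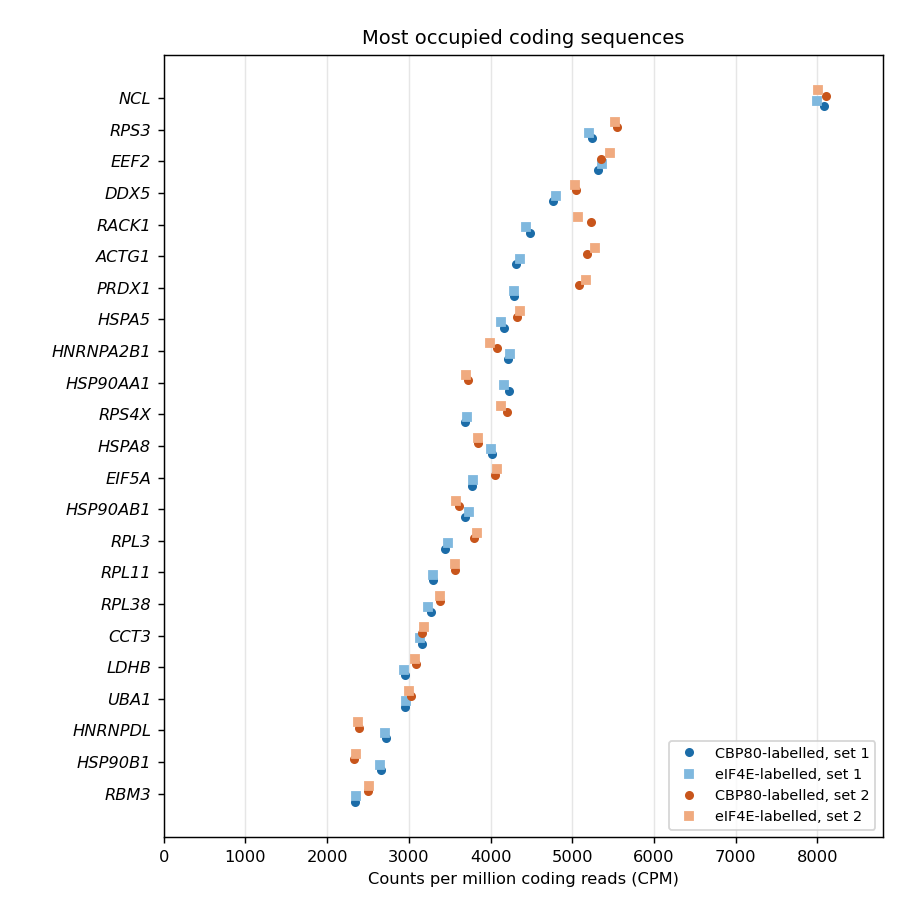
Counts per 1000000 coding reads (x axis, CPM) for 23 of the 25 most occupied genes (y axis, by mean), with 1 point for each library. NCL stands apart at about 8049 CPM, and PRDX1, ACTG1 and RACK1 show set 2 (orange) to the right of set 1 (blue), while HSP90AA1, HNRNPDL and HSP90B1 show the opposite.

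Together, 22 functional lists with 1019 genes held 33.1% of footprints. Cytosolic ribosomal proteins took the most, 6.06 ± 0.456% (SD, n = 2), followed by replication-dependent histones at 3.02 ± 0.144% and cytosolic and nuclear chaperones at 2.93 ± 0.0381%. The 5 mitochondrial lists together took 4.20 ± 0.230%. ER chaperones held 1.92 ± 0.0382%, glycolytic enzymes 1.17 ± 0.0354% and secreted proteins 0.438 ± 0.00670%. The order depends on genes that have a named pseudogene: with all of them left out, ribosomal proteins held 0.0551%, histones 4.68% and glycolysis 0.178%. This follows by construction. Those genes carried 99.4% of ribosomal protein footprints and 90.2% of glycolytic ones, and no replication-dependent histone gene was among them. A pseudogene was counted only where its symbol was that of the gene followed by P and a number. Pseudogenes named otherwise would be missed. Genes without a counted one, such as HSP90AA1, HSP90AB1 and the histones, may therefore still share reads. Class shares follow the number of genes, their lengths and the reads that could be placed, so a class of few genes can outweigh a class of many. The 17 glycolytic genes held more than the 161 secreted protein genes in every library. Histones and cytosolic chaperones changed places, with chaperones ahead in set 1 (2.96 and 2.96% against 2.92 and 2.92%) and histones ahead in set 2 (3.13 and 3.11% against 2.91 and 2.90%).

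**Figure D3:**
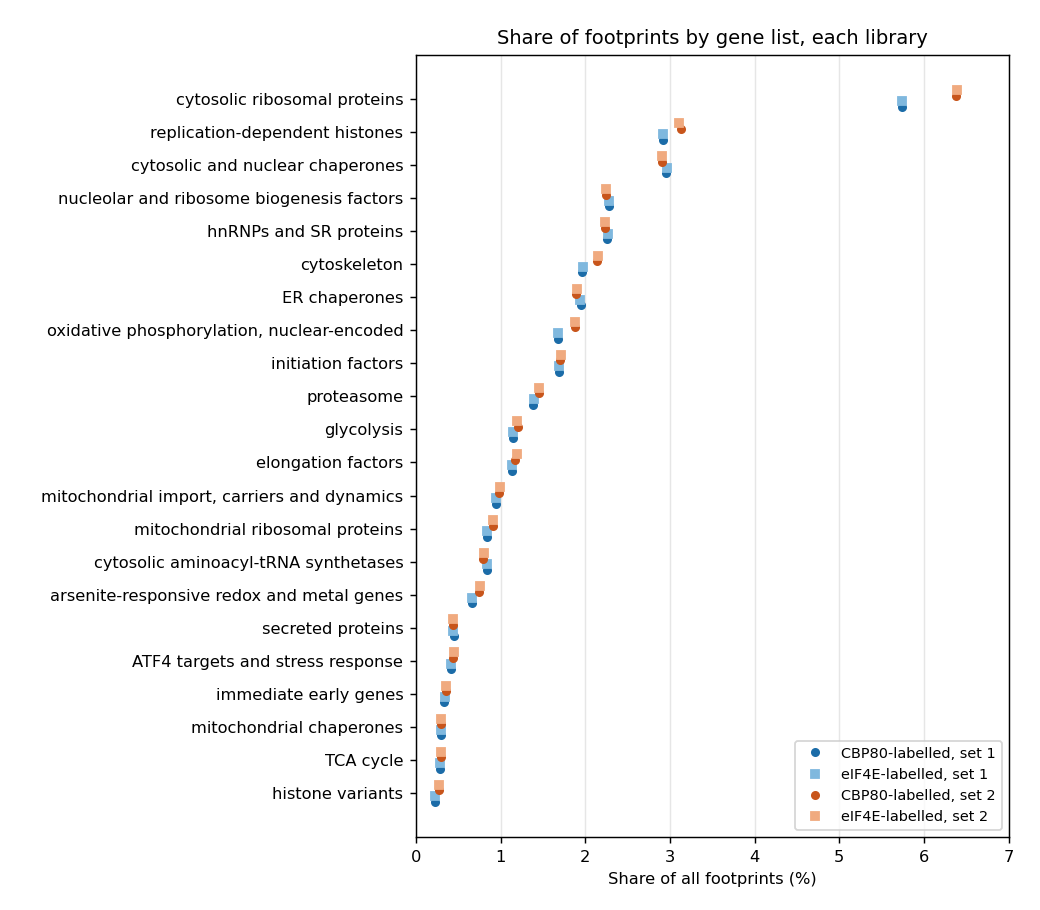
Share of all footprints (x axis, %) held by each of 22 gene lists (y axis), with 1 point for each library. Ribosomal proteins stand apart at 5.74% in set 1 and 6.38% in set 2, and points of the same set lie almost on top of each other in every list.

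Because the libraries of a set were counted as 1, the sets could not be tested against each other, and their difference is given as a ratio with a 95% interval of counting error. Among 6503 genes with a mean of at least 20 CPM, 12 (0.185%) were at least 1.5-fold higher in set 2 and 7 (0.108%) at least 1.5-fold lower. Only APOB had a counting interval wholly past 1.5-fold (0.11 to 0.20). For the others the interval reached within that fold, so counting error alone could place them on either side of it. These 19 became 29 and 32 without the CBP80- or the eIF4E-labelled library of set 1, and 43 and 39 without those of set 2. The count thus rose with each library left out. The median ratio of set 2 over set 1 was 0.979, and 43.8% of genes lay above 1. Of the 19 genes past 1.5-fold, 6 belong to a list: APOB, JUNB, RPL13A, MRPL9, NDUFA3 and MT2A. No list had more than 1 member past that fold. Ribosomal proteins had 55 of 67 measured members above 1, with a median of 1.10. Nuclear-encoded subunits of oxidative phosphorylation had 64 of 76 above 1, with a median of 1.14, and mitochondrial ribosomal proteins 61 of 79, with a median of 1.09. Aminoacyl-tRNA synthetases lay on the other side with 4 of 21 above 1 and a median of 0.966. ER chaperones had 13 of 34 above 1 and a median of 0.957.

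Among genes of at least 100 CPM, the lowest ratios were those of AHNAK (0.66, interval 0.61 to 0.71), MACF1 (0.70), USP34 (0.73), CHD1 (0.74) and TOP2B (0.74). AHNAK and MACF1 encode giant scaffold and cytoskeletal linker proteins, USP34 a very large deubiquitinase, CHD1 a chromatin remodeller and TOP2B a topoisomerase. AHNAK had 186 and 182 CPM in set 1 against 122 and 121 CPM in set 2. The highest ratios were those of MRPL9 (1.53, interval 1.43 to 1.64), RPL13A (1.51), GSTP1 (1.46), CMC2 (1.46) and NDUFB4 (1.46). These encode small proteins of the mitochondrial and cytosolic ribosome, glutathione conjugation, a mitochondrial assembly factor and respiratory complex I. The fraction of uniquely placed reads that fell outside coding sequences, given above, differed between the same sets, and its part in these ratios was not tested.

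**Figure D4:**
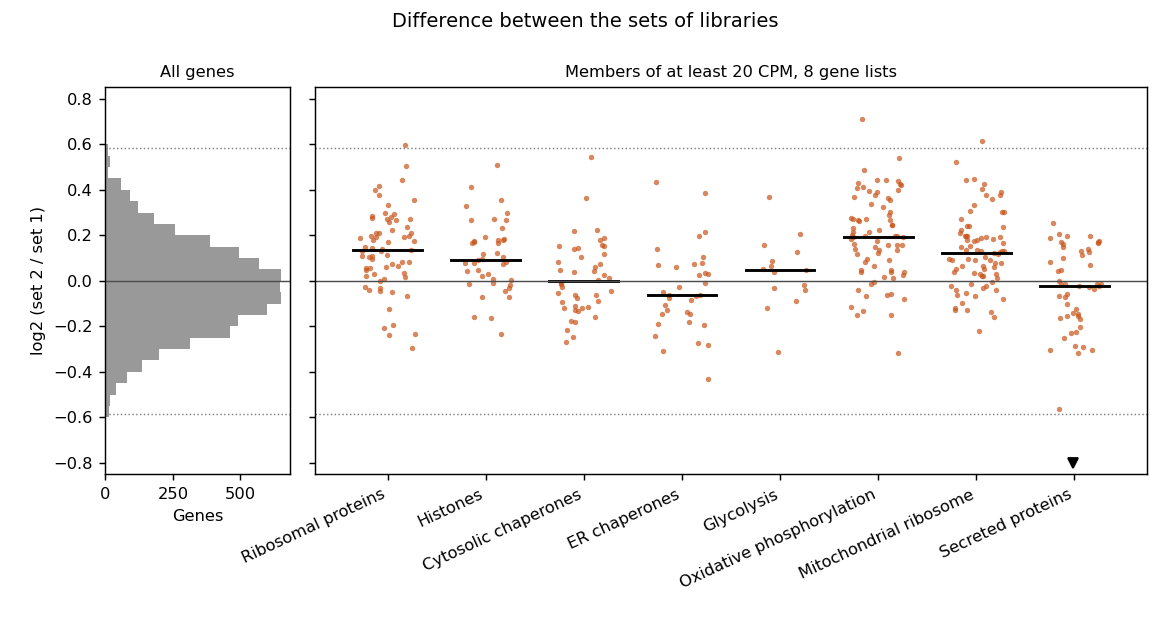
Ratio of set 2 to set 1 on a log2 scale (y axis) for all 6503 genes of at least 20 CPM (left, histogram with the number of genes on the x axis) and for the members of 8 lists (right, 1 point for each gene, black bar at the median). Dotted lines mark 1.5-fold, and the triangle at the base is APOB, whose ratio of 0.15 lies off the axis.

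Ribosomal proteins were measured in 86 genes, 53 of the large and 33 of the small subunit, which held 3.28 ± 0.176% and 2.78 ± 0.279% of footprints. Their levels were uneven, from 0 to 5380.4 CPM with a median of 326 CPM, and 9 genes carried 50% of the class. Among those after RPS3, RPS4X stood at 3688, 3710.4, 4206 and 4134 CPM and RPL3 at 3446, 3481, 3794 and 3833 CPM. Both were higher in both libraries of set 2, with ratios of 1.13 and 1.10. RPL11 stood at 3299, 3294, 3569 and 3568 CPM and RPL38 at 3275, 3228, 3383 and 3376 CPM. RPL13A had 197, 205, 311 and 296 CPM, again higher in set 2. Some ribosomal proteins were nearly without reads: RPL39 had at most 0.352 CPM, RPS10 at most 0.193 CPM and RPS26 0.387 to 1.06 CPM. In the form of name counted here, RefSeq names pseudogenes after 79 of the 86 genes. The 57 genes with 10 or more named pseudogenes had a median of 258 CPM, the 22 with 1 to 9 a median of 749 CPM, and the 7 with none a median of 11.2 CPM. Those 7 ranged from 0.0484 to 230 CPM, and the highest of them was the ribosomal protein-like gene RPL36AL. The share of the class counts only reads that fit 1 place, and the part of pseudogenes in it was not tested.

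The TOP run was looked for at annotated starts of genes, as a C at the start followed by at least 4 further C or T on the sense strand. In RefSeq's table (GRCh38.p14) starts were listed for 68 of the 86 ribosomal protein genes, and 47 of them (69.1%) began with such a run. Of all genes with a listed start, 964 of 15096 (6.39%) did, and they held 11.5% of footprints. Of genes of at least 20 CPM, 441 of 5468 (8.07%) did, against 16 of 85 (18.8%) among the 100 most occupied and 7 of 22 (31.8%) among the first 25. The windows of 6 of those 7 genes are shown with 10 bases before the start and 20 from it on, with the run in capitals, beside NCL and HSPA5, which lack it at the start that RefSeq lists.
RPS3, chr11:75399508-75399537, plus strand: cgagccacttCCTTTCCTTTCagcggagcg
EEF2, chr19:3985444-3985473, minus strand: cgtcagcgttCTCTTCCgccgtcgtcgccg
DDX5, chr17:64506619-64506648, minus strand: cgccttccccCTCTTTTggttacagacgtg
RACK1, chr5:181243887-181243916, minus strand: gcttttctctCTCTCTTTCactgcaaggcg
RPL11, chr1:23691796-23691825, plus strand: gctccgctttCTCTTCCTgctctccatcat
RPL38, chr17:74203668-74203697, plus strand: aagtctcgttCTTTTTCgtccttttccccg
NCL, chr2:231464465-231464494, minus strand: ctttcgcctcagtctcgagctctcgctggc
HSPA5, chr9:125241324-125241353, minus strand: cggtgaggtcgacgccggccaagacagcac

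These runs span 7 bases in EEF2, DDX5 and RPL38, 8 in RPL11, 9 in RACK1 and 11 in RPS3. A match describes the letters at an annotated start, which can differ from the start used in these cells. Some genes have several listed starts, such as DDX5 with 3 and RPL11 with 2, so a match can concern 1 of them. Of 35116 listed starts, 1429 (4.07%) began with such a run. RPS3, RACK1, EEF2, RPL11 and RPL38, ribosomal or translational proteins, were shown because they have the run and are among the most footprinted genes. DDX5 has such letters too, and is not part of the translation machinery. RPS4X, RPL3 and EIF5A, ribosomal or translational proteins whose genes are also among the most footprinted, lacked the run at the start examined. EIF5A has 6 listed starts, so its result concerns 1 of them. The run was found in 3 of 8 elongation factors, 8 of 33 initiation factors (24.2%) and 1 of 35 ER chaperones (2.86%). Histones had it in 1 of 63 genes (1.59%).

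Translation factors held a small number of very large entries. The 10 elongation factor genes took 1.16 ± 0.0317% of footprints, and EEF2 alone held 46.4% of that. EIF5A, which helps ribosomes through difficult stretches and in termination, had 3776, 3789, 4057 and 4079.7 CPM, higher in set 2. EEF1A1, the carrier of aminoacyl-tRNA, had 984, 968, 878 and 911 CPM, lower in set 2. The 42 initiation factor genes took 1.70 ± 0.0156% and were more even, with 8 genes for 50% of the class. EIF4A1, an RNA helicase of initiation, led at 1407 ± 99.6 CPM, with EIF3I at 1345 ± 73.6 CPM and the scaffold EIF4G1 at 1176 ± 83.1 CPM.

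Cytosolic and nuclear chaperones fold new proteins and hold or refold damaged ones. In these cells 4 of 56 genes carried 50% of the class. HSP90AA1, the inducible HSP90, had 4220.0, 4168, 3724 and 3695 CPM, and its constitutive partner HSP90AB1 had 3689.6, 3734, 3613 and 3572 CPM. HSPA8, the constitutive HSP70, had 4015, 4010.3, 3848 and 3842 CPM. CCT3, a subunit of the TRiC chaperonin that folds actin and tubulin, had 3160.0, 3134, 3164 and 3179 CPM. The HSP90 and HSP70 genes were a little lower in set 2 without overlap, while CCT3 was level. The 8 TRiC subunits together held 0.966 ± 0.00423% of footprints, and the pair of HSP90 genes 0.760 ± 0.0427%.

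DNAJB1, the heat-inducible HSP40 partner, stood far below these at 170, 174, 196 and 197 CPM, and BAG3, the HSP70 co-factor of aggregate clearance, at 61.6, 63.6, 68.5 and 71.6 CPM. HSPB1, a small heat shock protein, had 29.0, 33.7, 42.9 and 37.4 CPM, and HSPH1, an exchange factor of HSP70, 384, 384, 321 and 315 CPM. DNAJB1, BAG3 and HSPB1 were higher in both libraries of set 2 and HSPH1 lower. HSPA1A and HSPA1B, the classic arsenite-induced HSP70 genes, were at 0 in all 4 libraries. These neighbouring genes encode near-identical proteins, so that their reads can fit both, and reads with more than 1 place are not in the gene rows. A count of 0 is therefore no measurement of their level. HSPA6, another inducible HSP70, had 0.528 to 0.878 CPM, close to the level of 3 counts.

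ER chaperones, which fold secreted and membrane proteins, had 38 genes, all with reads, and 4 of them held 54.1% of the class. HSPA5, the ER's HSP70 and a regulator of the unfolded protein response, had 4163, 4126, 4328 and 4364 CPM, slightly higher in set 2. HSP90B1, the ER's HSP90, had 2658, 2642, 2326 and 2351 CPM, lower in set 2 with a ratio of 0.88. The lectin chaperones CALR and CANX had 2098 ± 66.4 and 1550.3 ± 109 CPM. HSPA5 was thus the higher in set 2, while HSP90B1, CALR and CANX were each lower there in both libraries.

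Genes tied to the stress response were also footprinted. The list of ATF4 and its targets, which restore amino acid supply, held 0.426 ± 0.0196% of footprints over 24 genes. ATF4 itself had 639, 653, 668 and 663 CPM. PHGDH, the entry enzyme of serine synthesis, led the list at 1287, 1280.5, 1362 and 1399.8 CPM and alone held 31.3% of it. SLC3A2, a subunit of amino acid transporters, had 633 ± 57.9 CPM and ASNS, asparagine synthetase, 351 ± 7.89 CPM. Immediate early genes, 23 of them, held 0.345 ± 0.0104%. JUN led at 1072, 1072, 1061 and 1038 CPM and FOS followed at 673, 688, 734 and 743 CPM. EGR1 had 451 ± 18.9 CPM. These transcription factors are known to be induced by many stimuli, and their levels in unstressed cells were not analysed here.

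The redox and metal list held 0.705 ± 0.0644% of footprints, of which PRDX1 alone gave 66.7%. TXNRD1, thioredoxin reductase, had 850.4, 863, 839.8 and 815 CPM and thioredoxin itself, TXN, 609, 605, 605 and 610 CPM. TXN was level across sets and TXNRD1 slightly lower in set 2. HMOX1, the haem-degrading enzyme strongly induced by arsenite in many cells, had 81.8, 74.5, 98.5 and 96.3 CPM. It was higher in set 2 without overlap. The metallothionein MT2A had 18.6, 18.98, 32.3 and 30.2 CPM, a ratio of 1.67 (interval 1.39 to 1.997). The metallothioneins MT1A, MT1B, MT1E, MT1G, MT1H and MT1M were at 0 in all libraries. The metallothioneins form a family of short, similar genes, so these zeros concern uniquely placed reads.

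Glycolytic footprints were concentrated in 4 genes whose enzymes act late in the pathway or on its product. LDHB, a lactate dehydrogenase subunit, had 2958, 2935, 3087 and 3078 CPM and made up 25.8% of the class. PGK1, an ATP-forming kinase of the pathway, had 1749 ± 16.6 CPM. ENO1, enolase, had 1732 ± 77.6 CPM, and PKM, pyruvate kinase, 1588 ± 29.9 CPM. Together they held 69.2% of the 17 genes' footprints. Named pseudogenes exist for 9 of the 17, and those 9 held 90.2% of the class. ALDOA had no row of that symbol and was not analysed here. The class as a whole differed little between sets, with a ratio of 1.04 (interval 1.04 to 1.05).

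Replication-dependent histones are made in S phase from many gene copies, whose mRNAs end in a stem-loop in place of a poly(A) tail. The labels give the molecule as polyA RNA, and the class still took 2.92, 2.92, 3.13 and 3.11% of footprints. H2B genes held 0.716 ± 0.00203%, H4 genes 0.716 ± 0.0126%, H2A genes 0.646 ± 0.0334%, H1 genes 0.548 ± 0.0539% and H3 genes 0.392 ± 0.0464%. All core histones were thus represented. The linker histone H1-2 led at 2059, 2010.0, 2221 and 2151 CPM. H1-4, another linker histone, had 1715, 1719.9, 2292 and 2278 CPM, a ratio of 1.33 that was the larger of the pair. H4C5 had 1795 ± 43.6 CPM, H4C3 1672 ± 98.5 CPM and H2BC5 1606 ± 10.6 CPM. Of 68 genes, 10 held 50% of the class, 11 stood among the 100 most occupied genes, and 8 were at 0: H2AC18, H2AC19, H3C14, H3C15, H4C7, H4C13, H4C14 and H4C15. Copies that encode the same histone can share reads, so single histone genes are uncertain. The replication-independent variants held 0.249 ± 0.0343%, of which H2AZ1 made 61.8% at 1371, 1361, 1719 and 1709.8 CPM.

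Mitochondrial proteins made from nuclear genes had a lower leading gene than glycolysis, 761 CPM against 3015 CPM. None of the 264 genes of the 5 lists stood among the 100 most occupied. For 50% of their footprints 51 of the 264 genes were needed, against 3 of 17 for glycolysis. These lists are too unlike in size to be compared by such counts. Mitochondrial chaperones alone needed 3 of 13 genes. Oxidative phosphorylation subunits held 1.68, 1.68, 1.88 and 1.88% of footprints, a ratio of 1.12 (interval 1.11 to 1.13). Complex I subunits held 0.661 ± 0.0582%, ATP synthase subunits 0.520 ± 0.0320%, complex IV subunits 0.334 ± 0.0369%, complex III subunits 0.211 ± 0.0110% and complex II subunits 0.0432 ± 0.00185%. The most occupied single genes were ATP5F1B, the catalytic subunit of ATP synthase, at 762, 725, 759 and 799 CPM and COX6B1 of complex IV at 597, 603, 744 and 737 CPM. COX6B1 was higher in set 2 without overlap, and ATP5F1B was not. NDUFA3 of complex I had 64.6, 67.3, 106 and 110.4 CPM, the highest ratio of the class at 1.64 (interval 1.49 to 1.80). Mitochondrial ribosomal proteins were even, with 24 of 82 genes for 50% of a share of 0.874 ± 0.0495%. MRPL20 led with 291 ± 24.9 CPM, and MRPL9 had 128 and 132 CPM in set 1 and 198 and 200.2 CPM in set 2. Import, carrier and dynamics genes held 0.965 ± 0.0296%, TCA cycle enzymes 0.291 ± 0.00847% and mitochondrial chaperones 0.293 ± 0.00114%. HSPD1, the chaperonin of the matrix, had 644 ± 4.76 CPM and HSPA9, the matrix HSP70, 490.4 ± 12.1 CPM.

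**Figure D5:**
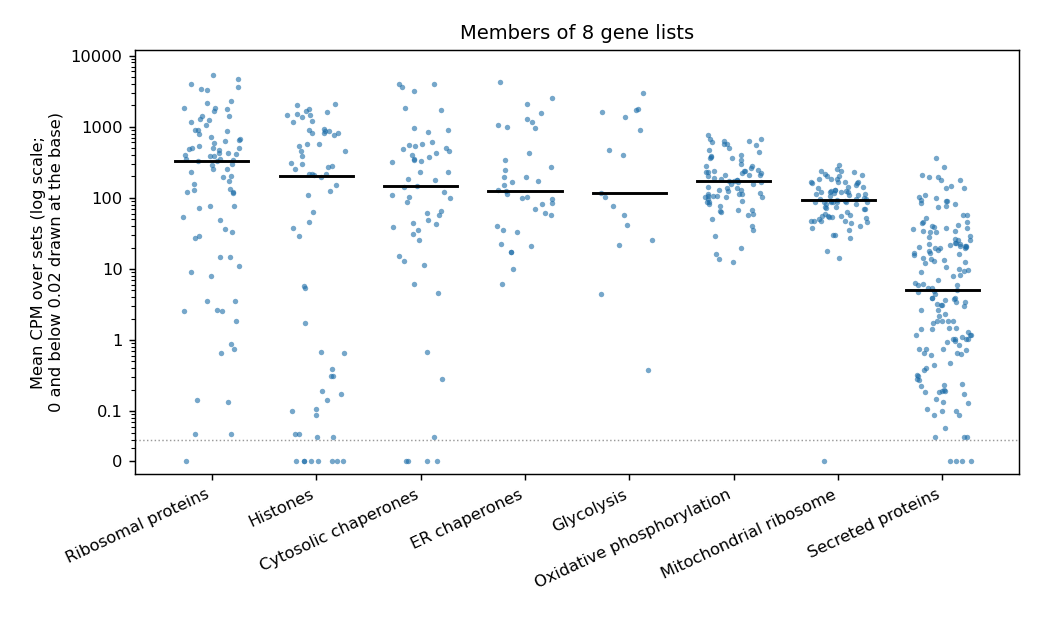
Mean CPM over the sets (y axis, log scale, with 0 and values below 0.02 drawn at the base) for every member of 8 gene lists (x axis), with 1 point for each gene and a black bar at the median. Glycolysis, cytosolic chaperones and ER chaperones reach high single values above medians of 116, 145 and 126 CPM. Mitochondrial ribosomal proteins lie around a median of 92.0 CPM, up to 291 CPM and with 1 gene at 0. Secreted proteins also reach 0 and have a median of 5.14 CPM.

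The list of secreted proteins drew few footprints. Its 161 genes held 0.444, 0.441, 0.433 and 0.433%, with a median of 5.14 CPM per gene and 51 genes of at least 20 CPM. The list is not complete, since the plasma proteins ALB, SERPINA1, ITIH2 and A2M are outside it. Its share therefore depends on which genes were listed. B2M, the light chain of class I molecules, led at 334, 358, 369 and 374 CPM. STC2, a glycoprotein hormone known as a stress-responsive gene, had 254, 256, 278 and 299 CPM. LAMC1, a laminin chain, had 228, 235, 186 and 192 CPM, and the protease ADAMTS1 had 196 ± 14.8 CPM. STC2 was higher and LAMC1 lower in set 2. Of the class, 4 genes were at 0 in all libraries, RSPO3, CXCL12 and TAC1 among them.

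APOB, the protein of low density lipoprotein that liver cells secrete, stood apart. It had 36.2 and 39.2 CPM in set 1 against 3.87 and 7.62 CPM in set 2, a ratio of 0.15 (interval 0.11 to 0.20), and was the only gene of at least 20 CPM past 2-fold. Of the 4 liver markers, 3 were higher in set 1 too. ALB, serum albumin, had 19.4 and 18.6 CPM in set 1 and 4.45 and 5.54 CPM in set 2. SERPINA1, the plasma antitrypsin, had 8.27 and 6.68 against 0.387 and 1.62 CPM, and the lipoprotein APOA1 had 2.99 and 2.64 against 0.387 and 1.39 CPM. The liver marker TTR was at or near 0 in all 4 libraries. The list summed to 5.42 to 30.6 CPM over the libraries, and its part in the APOB difference was not tested. The source of the reads on these liver genes cannot be told from the counts of bulk libraries and was not tested. Without APOB the secreted share was 0.436 ± 0.00444%.

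Among the other classes, nucleolar and RNA-binding proteins differed least between sets. The 44 nucleolar and ribosome biogenesis genes held 2.26 ± 0.0223% of footprints, of which NCL gave 35.6%. POLR1A, the largest subunit of RNA polymerase I, came next at 1181 ± 93.3 CPM. RNA-binding proteins of the hnRNP and SR families held 2.24 ± 0.0209%, led by HNRNPA2B1 at 4216, 4239, 4078 and 3998 CPM and HNRNPDL at 2717, 2713, 2391 and 2373 CPM. Proteasome subunits held 1.42 ± 0.0472% with no member among the 100 most occupied. PSMB1, a subunit of its core, led with 960.2 ± 3.20 CPM. Aminoacyl-tRNA synthetases held 0.818 ± 0.0266%, led by AARS1 at 882 ± 21.1 CPM. The cytoskeleton list held 1.96 and 1.97% in set 1 against 2.14 and 2.15% in set 2. Its members were divided, with 20 of 41 above a ratio of 1 and a median of 0.989. The most occupied were higher in set 2: ACTB, beta-actin, had 1432, 1447, 1891 and 1863 CPM, like ACTG1. KIF5B, a kinesin motor, had the lowest ratio of the list at 0.72.

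In all, 29 class members had no read in any library. Beside those named above they include RPS18 of the small ribosomal subunit, TUBB, the main beta-tubulin, VARS1, the cytosolic valyl-tRNA synthetase, MRPS18B of the mitochondrial ribosome, the prefoldin subunit PFDN6, the HSP70 gene HSPA1L, the splicing regulator SRSF10, the carrier SLC25A6 and the immediate early gene IER3. RPS18, TUBB and VARS1 are needed by every cell, so a count of 0 there is no measure of their translation. The cause was not tested.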

How the data were processed

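Ribo-seq of 4 HEK293T libraries was used. The submitters' processing notes name cutadapt, STAR 2.5.2b and hg19, and the labels' protocols name TRIzol and a TruSeq small RNA kit. For the counter, its annotation and its strand setting, the sources used here state nothing, so a gene and its antisense partner may share reads. The deposited values are raw counts of reads per coding sequence, with 1 RefSeq transcript per row. Summary rows were left out of every total. Of 19305 accessions, 18884 were named through RefSeq's GRCh38.p14 table, used for names, gene order and start sequences only, and 421 kept their accession. 7 symbols had more than 1 accession.

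Groups and set numbers came from the titles. Pairs of libraries were compared by a chi-square over genes whose summed reads reached 20, and indistinguishable libraries of a set were averaged. Shares and CPM were computed in Python 3.11.15 with numpy 2.4.6, pandas 2.3.3 and scipy 1.17.1. Intervals are 95% exact binomial intervals, conditional for ratios, and cover counting error only, since reads carried no molecular identifiers. The code was tested on simulated data. There was no contrast and no test between sets.

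The members and lists were chosen with earlier results of these data known. Named genes are the 25 of highest mean CPM, the 4 highest members of each list and its members at 0, the 5 highest and 5 lowest ratios of set 2 over set 1 among genes of at least 100 CPM, and EIF2A, NCBP1, EIF4E, HSPA5, ATF4, HMOX1, HSPA1A, HSPA1B and DNAJB1. Other named genes were chosen after their values were seen, among them BAG3, HSPB1, HSPH1, HSPA6, H2BC5, NDUFA3, MT2A and KIF5B. A few genes covered by the rule are left unreported. Of the list genes, RPL36A, HSPA14, GRPEL1, GRPEL2, ALDOA and NDUFA4 had no row of that symbol and were not analysed here. Alternatives were each library left out, genes of at least 10 reads, another total, summed counts, other limits for the ratio and genes with named pseudogenes left out.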

Additional observations from a re-analysis of the deposited data

How the results depend on the processing

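The shares of the 100 most occupied genes and of the 7 main classes, and the number of genes for 50% of footprints, moved by less than the SD over sets, or for the number by less than 1.5 times, when any library was left out, when genes needed at least 10 reads in each library, and when counts were summed. Leaving out a library says little here, since the nearly identical library of its set remains. With uniquely placed reads outside coding sequences added to the total, all shares fell by construction: the 100 most occupied genes to 13.4%, ribosomal proteins to 3.78%, cytosolic chaperones to 1.82%, ER chaperones to 1.19%, glycolysis to 0.728%, histones to 1.88%, mitochondria to 2.62% and secreted proteins to 0.272%, with 2712 genes for 50%. Leaving out all genes with a named pseudogene, an alternative chosen after seeing the data, gave 20.3% for the 100 most occupied genes, 0.0551% for ribosomal proteins, 1.88% for cytosolic chaperones, 2.20% for ER chaperones, 0.178% for glycolysis, 4.68% for histones, 2.68% for mitochondria and 0.675% for secreted proteins. The order of the classes thus depends on that choice, and does so by construction. The genes left out carried 99.4% of ribosomal protein footprints, and no replication-dependent histone gene was among them. Only pseudogenes named after a gene with P and a number were counted, so the choice also depends on that form of name. The 19 genes past 1.5-fold between sets became 1 at 2-fold (APOB), 3 with a mean of at least 100 CPM (AHNAK, RPL13A and MRPL9), and 29 to 43 with each library left out in turn. No paired analysis was possible because these results come from no test: no contrast between the CBP80 and eIF4E labels was set, and the libraries of a set were counted as 1. Reads per codon, and the alternative without genes of near-identical proteins, were not run because no coding lengths or proteins were at hand.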

Other observations

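The 5 lowest ratios of set 2 over set 1 among 10617 genes of at least 3 CPM all belonged to plasma proteins known to be made mainly by the liver. They were looked up after the values were seen. ITIH2, a chain of an inhibitor that binds hyaluronan, had 8.62 and 6.501 CPM in set 1 and 0.774 and 0.462 CPM in set 2, a ratio of 0.084 (interval 0.030 to 0.19). SERPINA1 had a ratio of 0.13 (0.056 to 0.25), APOB of 0.15 (0.11 to 0.20) and ALB of 0.26 (0.19 to 0.36). A2M, a protease inhibitor of plasma, had 4.22 and 5.10 CPM against 0.774 and 2.08 CPM, a ratio of 0.29 (0.15 to 0.55). Both libraries of set 1 were above both of set 2 for each of the 5. The limit of 3 CPM left out weaker genes that are not liver markers. LYZ, a blood marker, had 13 and 16 reads in set 1 and 1 and 0 in set 2, a ratio of 0.041. SPI1, another blood marker, had 0 and 4 reads in set 1 and 4 and 2 in set 2, a ratio of 1.80. The source of these reads was not tested.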
